A study of Arabidopsis thaliana with 8 samples.

Results

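The comparison described here is the seed transcriptome of pkr2-2;pkl-10, the double mutant, against that of pkr2-2, and it asks what the added pkl-10 mutation changed in seeds that already lacked PKR2. It was chosen by genotype, and rests on 4 of the 8 samples of the study and all 38209 genes of the gene table. The other 4 samples, of wild-type Col-0 and of the single mutant pkl-1, enter only where Col-0 or pkl-1 is named. All plants were Arabidopsis thaliana in the Col-0 background. The pkr2-2 allele is the insertion line SALK_115303 in PICKLE RELATED 2 (PKR2), and pkl-10 is the insertion line GABI_273E06 in PICKLE (PKL). Both groups carried pkr2-2, so PKR2 was lost on each side of the comparison, and in their genotype labels the groups differed only by pkl-10. Differences of growth, harvest or library between the groups were not tested. Each genotype had 2 biological replicates of seeds from manually self-pollinated plants, with seeds from no fewer than 30 siliques pooled for every replicate. The sample labels give seeds 4 days after pollination (DAP), while the extraction protocol gives 3 DAP, and the day could not be settled from the sources used here. Whole seeds hold embryo, endosperm and maternal seed coat, so fewer cells of a type and less RNA per cell cannot be told apart.

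PKL and PKR2 belong to the CHD3 family, ATPases that slide or space nucleosomes and so alter how accessible a gene is. In Arabidopsis, PKL is known for keeping embryo genes such as LEAFY COTYLEDON1 (LEC1) silent after germination, and it acts together with the Polycomb mark H3K27me3. PKR2 is a faster evolving relative that is expressed in seeds. During the days after fertilisation the endosperm proliferates and cellularises, the seed coat differentiates, and several of its cell layers undergo developmental programmed cell death.

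The positions of the genotyping primers show which parts of both genes the alleles concern, so the pairs that amplify the wild-type alleles are printed with their places in TAIR10.1. The pkl-10 pair lies at chr2:10714548-10714568 in exon 2 of 31 and at chr2:10715429-10715451 in intron 5, and spans 904 bases of PKL. The pkr2-2 pair lies at chr4:15432390-15432410 in exon 6 of 31 and at chr4:15433350-15433370 in exon 10, and spans 981 bases of PKR2.
pkl-10 forward: tgcggtttgtttctcctctcg
pkl-10 reverse (wild type): tgtttcagagacccaaaatcgtg
pkr2-2 forward: ttctgatttttcaaccgatgg
pkr2-2 reverse (wild type): ggggaggagtatctggtgaag

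PKL (AT2G25170, chromosome 2 of TAIR10.1) was at 12.7 FPKM in pkr2-2 and 2.48 FPKM in the double mutant, so its transcript fell by 1.98 on the log2 scale, as the pkl-10 label leads one to look for. FPKM counts sequenced fragments after division by transcript length in kilobases and by the size of the library, and the authors pooled both replicates into 1 value per genotype. Log2 values here are differences of log2(FPKM + 1), which understate the change of genes near or below 1 FPKM. PKR2 (AT4G31900) was at 0.198 FPKM in pkr2-2 and 0.122 in the double mutant. The third family member, PKR1 (AT5G44800), was at 3.14 and 5.05 FPKM. Because values were pooled, no spread between replicates is known and no test could be run. Where a precision is given, it is the 95% interval of the FPKM ratio from counting error alone, computed from fragment numbers that were recovered from the steps between the lowest FPKM values. For PKL the recovered numbers were 1809 and 595 fragments, and the interval of the ratio ran from 0.177 to 0.214. Variation between plants and siliques is outside such an interval.

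Of the 38209 genes, 19094 had at least 1 FPKM in either genotype and were compared. In the double mutant 1350 of these (7.07%) were at least 2-fold higher than in pkr2-2 and 1434 (7.51%) at least 2-fold lower. A 4-fold difference was reached by 234 genes upwards (1.23%) and 318 downwards (1.67%), and an 8-fold difference by 70 (0.367%) and 85 (0.445%). The median over all genes compared was 0.01 on the log2 scale with quartiles at -0.41 and 0.42, and 16310 genes (85.4%) stayed within 2-fold. These shares are the background for every count that follows, in which "rose" and "fell" mean a difference of at least 2-fold. A gene under 1 FPKM in pkr2-2 was compared only if the double mutant reached that level, and the reverse, which favours a difference. Among the genes that rose, 1212 (89.8%) had been within 2-fold of Col-0 in pkr2-2, and among those that fell 1208 (84.2%) had been. Another 85 of the genes that rose had been at least 2-fold below Col-0 in pkr2-2, and 180 of those that fell had been at least 2-fold above it.

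The largest differences sat on very short or non-coding transcripts, for which pooled FPKM is least reliable. Of the 1038 genes compared with a transcript under 600 nucleotides (nt), 54.7% were past 2-fold in either direction, against 12.3% of the 18056 longer ones. Among the 12 genes with the largest rise, 7 were non-coding, 8 were under 600 nt and 11 were listed at 0 in pkr2-2. Only DIR1, a lipid transfer protein of systemic defence signalling, was coding and longer, at 0 FPKM in pkr2-2 and 22.2 in the double mutant. It shares its locus with AT5G48480, on the opposite strand at 223 and 275 FPKM, and the library kit did not mark strand. Other genes named below also overlap a gene on the opposite strand, and not every such overlap is stated. Stronger neighbours lie at FIS2 (40.8 and 64.1 FPKM), L1L (33.2 and 30.6) and RAB18 (32.6 and 28.2). Further cases are WRKY53 (25.8 and 19.7) and FKF1 (22.8 and 32.6). Among the 12 largest falls, 11 were short or non-coding, led by the spliceosomal RNA gene U5.6 at 1321 and 0 FPKM. The exception was GATA29, a GATA-type zinc finger factor, at 30.1 and 0.172 FPKM (log2 difference -4.73). For this reason the genes named from here on have transcripts of at least 600 nt unless stated, and those outside the fixed lists were chosen after their values were seen. Over the 17685 protein-coding genes of that length, 1118 rose and 1027 fell. The counting interval of every one of them excluded a ratio of 1, which the 2-fold threshold on FPKM + 1 brings about by itself at this length. It therefore adds no support. The interval lay beyond a 2-fold change for 1031 of the genes that rose and 927 of those that fell.

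**Figure D1:**
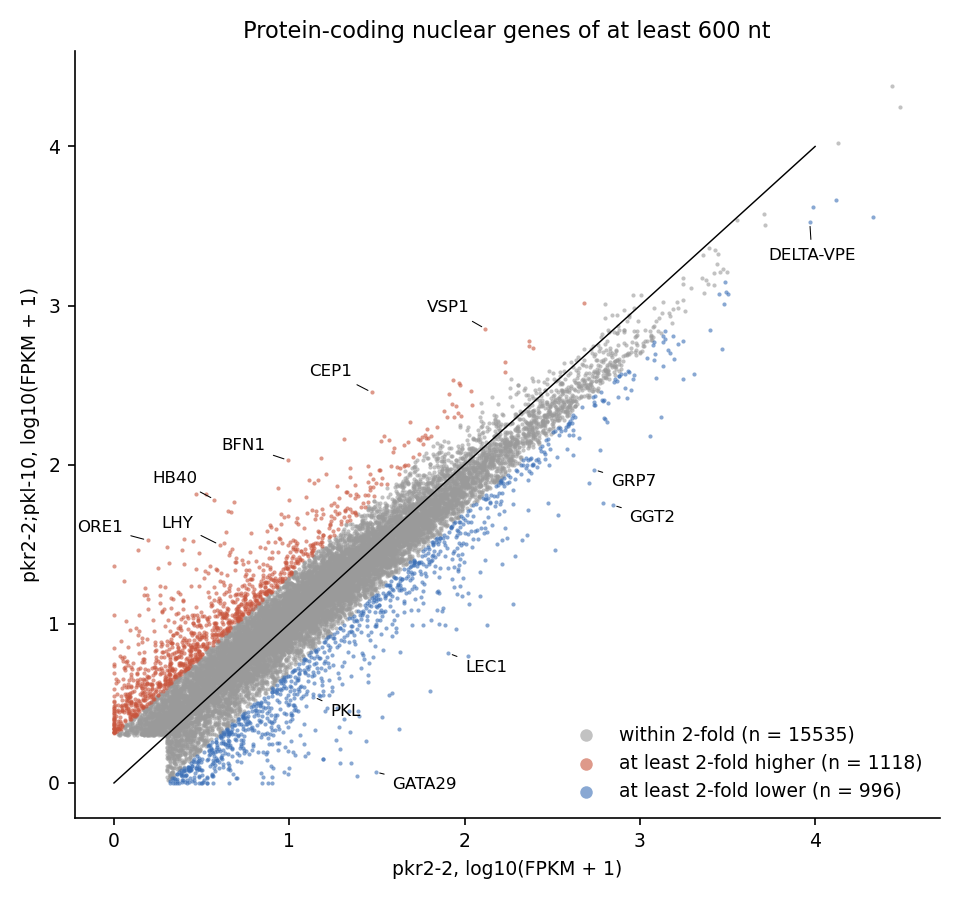
Level of each nuclear protein-coding gene with a transcript of at least 600 nt, as log10 of FPKM + 1, in pkr2-2 (x axis) and in the double mutant (y axis). Each point is 1 gene with 1 pooled value per genotype, and the line marks equal levels. Of 17649 genes, 1118 rose at least 2-fold (red) and 996 fell (blue), with ORE1, HB40, BFN1 and CEP1 far above the line and GATA29, LEC1 and GGT2 far below it.

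Several genes that carry out or mark developmental programmed cell death were higher in the double mutant. Of 8 such genes, a list drawn up after their values had been seen, 7 rose and 6 of these rose at least 4-fold. Their median log2 difference was 2.47, and because of that choice these counts are values only. DELTA-VPE, a protease of seed coat cell death given further below, is not in the list and fell. The summed level of the 8 genes was 89.5 FPKM in pkr2-2 and 631 FPKM in the double mutant. CEP1 (AT5G50260, chromosome 5), a papain-type protease of dying tapetum and other dying cells, was the highest of them, at 28.5 FPKM in pkr2-2 and 284 FPKM in the double mutant (interval of the ratio 9.40 to 10.6). BFN1, a nuclease that degrades DNA and RNA in dying and senescing cells, was at 8.82 and 106 FPKM (10.7 to 13.6). Both encode enzymes that dismantle the contents of a cell at or after death. DMP4, a membrane protein gene expressed in senescing and dying tissue, was at 7.63 and 70.3 FPKM. RNS3, a secreted ribonuclease, was at 8.93 and 59.4 FPKM, and the metacaspase gene MC9, which acts in the clearance of xylem and root cap cells, was at 8.33 and 46.0 FPKM. EXI1 and PASPA3, the latter an aspartic protease, rose from 1.64 to 9.92 and from 5.05 to 18.1 FPKM. SCPL48, a carboxypeptidase of maturing xylem, was the only one of the 8 under 2-fold, at 20.6 and 37.5 FPKM.

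NAC transcription factors that direct senescence and cell death rose with these enzymes. All 7 of the 9 listed factors that reached 1 FPKM rose, 6 of them at least 4-fold, and their summed level went from 12.9 to 128 FPKM over the list. This list, too, was drawn up after values had been seen. ORE1, NAC047 and NAC3 were under 1 FPKM in pkr2-2, so they were counted only through their level in the double mutant. The count is therefore a description and adds no support. ORE1 (NAC6, AT5G39610, chromosome 5), a central activator of leaf senescence, was at 0.558 FPKM in pkr2-2 and 32.5 FPKM in the double mutant, a ratio with an interval of 37.2 to 97.0. NAP, which acts beside ORE1 in senescing leaves and fruit, was at 1.43 and 28.2 FPKM. NAC047 was at 0.943 and 15.9 FPKM and NAC3 at 0.240 and 8.10. NAC019, a drought and abscisic acid responsive factor, rose by 2.11 on the log2 scale to 10.2 FPKM. KIR1, which ends the receptive life of the stigma by cell death, was at 1.03 and 9.57 FPKM. NAC087, an activator of root cap cell death, was at 6.50 and 22.5 FPKM. The factors missing from this rise were NAC046 at 0.559 and 0.623 FPKM and SMB, listed at 0 in both genotypes. Over the 49 NAC domain genes compared, 11 rose and 3 fell, with a median of 0.28.

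Genes that mark senescing leaves shared the direction without the same reach. Of 11 compared, from a list also drawn up after values had been seen, 8 rose and none fell past 2-fold, with a median of 1.28. SAG12, a cysteine protease used as a marker of age-related leaf senescence, was at 3.57 and 27.4 FPKM. The papain-type protease gene CEP2, a relative of CEP1, was at 3.49 and 50.4 FPKM, and the membrane protein gene DMP1 at 1.83 and 32.1 FPKM. Genes of chlorophyll breakdown lay lower in this order. NYC1, a chlorophyll b reductase, was at 28.0 and 68.4 FPKM and NYE1, a magnesium dechelatase, at 15.8 and 34.1 FPKM. PPH was at 8.50 and 15.2 FPKM and PAO, which opens the chlorophyll ring, was at 22.9 FPKM in both genotypes. The vacuolar processing enzymes, proteases with caspase-like activity, did not rise as a group. DELTA-VPE, which acts in cell death of the inner seed coat, was among the most abundant transcripts of these seeds and fell from 9324 to 3339 FPKM. BETA-VPE fell from 15.3 to 7.03 FPKM, while GAMMA-VPE was at 111 and 145 FPKM.

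**Figure D2:**
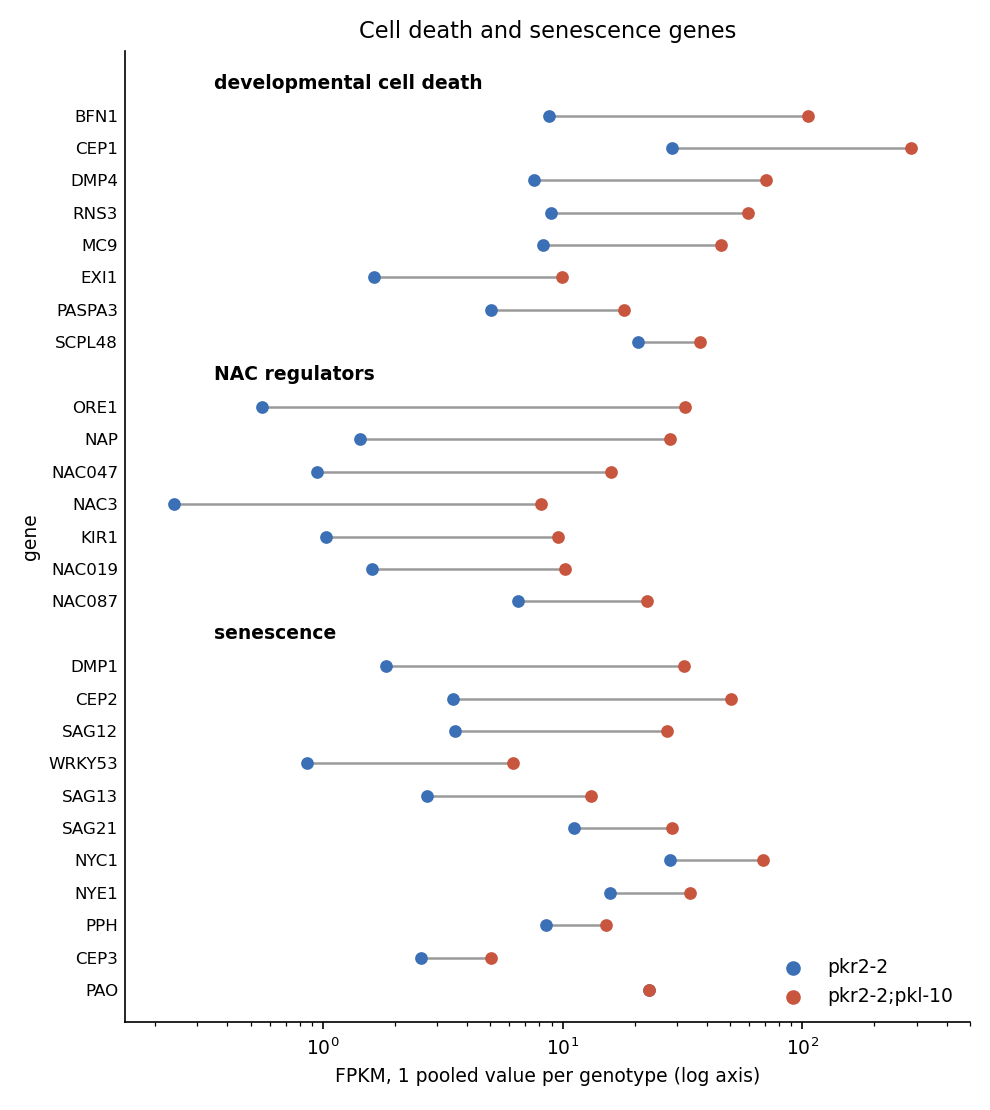
FPKM (log axis) in pkr2-2 (blue) and in the double mutant (red) for the listed genes of developmental cell death, NAC regulators and senescence that reached 1 FPKM in either genotype. Each point is 1 value pooled over both replicates, so no error bars can be drawn. All of these lists were drawn up after values had been seen. ORE1 spans 0.558 to 32.5 FPKM, CEP1 28.5 to 284 FPKM, and PAO has the same value in both genotypes.

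HB21 and HB40, homeodomain-leucine zipper factors known for raising abscisic acid in dormant axillary buds, rose together. HB40 (AT4G36740, chromosome 4) was at 2.74 FPKM in pkr2-2 and 59.4 FPKM in the double mutant (interval of the ratio 16.9 to 28.5), and HB21 at 3.64 and 49.7 FPKM (11.1 to 17.0). The third gene of the group, HB53, stayed under 1 FPKM at 0.0925 and 0.196. The ACGTG core, which bZIP factors of abscisic acid signalling bind, stands in the 300 bases before the HB40 start (minus strand, chr4:17316442-17316741), where the capitals mark it on either strand. It is printed because 42.9% of the windows of genes that rose at least 4-fold hold this core, against 25.6% of all 27441 windows.
HB40: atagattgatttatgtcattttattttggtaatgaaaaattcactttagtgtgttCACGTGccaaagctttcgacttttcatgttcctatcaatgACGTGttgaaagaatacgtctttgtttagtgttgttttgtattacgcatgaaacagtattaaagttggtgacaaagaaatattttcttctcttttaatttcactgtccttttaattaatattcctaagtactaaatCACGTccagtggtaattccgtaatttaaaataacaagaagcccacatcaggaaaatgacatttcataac
Counted from the gene start, its matches begin 245, 244, 205 and 69 bases upstream, and the first pair are the same palindrome read on both strands.

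The abscisic acid response genes themselves moved unevenly. Of 10 compared, 4 rose and none fell past 2-fold, with a median of 0.47. HIS1-3, a drought-induced linker histone variant, was the largest at 1.93 and 64.4 FPKM (interval 24.7 to 46.2), whereas the other linker histone genes H1.1 and H1.2 were at 619 and 387 FPKM and at 254 and 199 FPKM. MAPKKK18, a kinase gene induced by abscisic acid, was at 0.856 and 6.71 FPKM. The phosphatase genes HAB1 and HAB2, which inhibit the pathway, rose from 5.02 to 12.2 and from 4.04 to 11.0 FPKM. RAB18 was at 2.05 and 0.597 FPKM. None of the 7 genes of abscisic acid synthesis and breakdown compared was past 2-fold.

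Genes induced by low oxygen were higher in the double mutant. Of 10 compared, 7 rose, with a median of 1.35. The oxygen-sensing enzymes PCO1 and PCO2, which mark group VII ERF factors for degradation, rose from 6.04 to 18.5 and from 4.63 to 13.9 FPKM. LBD41, one of the core hypoxia genes, was already at 59.9 FPKM in pkr2-2 and reached 166 FPKM. HB1, a haemoglobin induced by hypoxia, was at 0.129 and 4.82 FPKM, and HRA1, which restrains the response, at 2.15 and 8.49 FPKM. The fermentation gene ADH1 rose from 13.5 to 34.3 FPKM, but PDC1, which supplies its substrate, was at 9.53 and 7.31 FPKM. SUS4 rose from 10.3 to 25.1 FPKM while SUS1, also a sucrose synthase, was at 96.8 and 108 FPKM. The ERF gene HRE1 was at 8.49 and 5.81 FPKM.

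Jasmonate genes were higher in part. Of 15 compared, 5 rose and 1 fell, with a median of 0.97. VSP1 and VSP2, vegetative storage proteins used as reporters of the pathway, rose from 130 to 714 FPKM (interval of the ratio 5.31 to 5.65) and from 244 to 540 FPKM. LOX2, the lipoxygenase that opens jasmonate synthesis in leaves, rose from 53.9 to 116 FPKM. Among the later enzymes of synthesis, AOS was at 24.1 and 19.2 FPKM and OPR3 at 47.8 and 29.6 FPKM, while AOC2 was at 2.15 FPKM in pkr2-2 and listed at 0 in the double mutant. JAZ5, one of the repressors that jasmonate destroys, was at 1.48 and 6.37 FPKM. MYC2, the factor those repressors hold back, was listed at 0.000900 and 6.09 FPKM. It shares its locus with AT1G32630 on the opposite strand, at 9.64 and 7.56 FPKM, so reads of the 2 genes cannot be told apart. Its relatives MYC3 and MYC4 rose from 9.72 to 23.2 and from 11.3 to 26.7 FPKM. In the whole basic helix-loop-helix family, listed after values had been seen, 19 of 73 genes rose and 1 fell, with a median of 0.73. The gene that fell was the endosperm gene ZOU.

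WRKY factors, many of them induced by pathogens or senescence, rose in 8 of 30 cases and fell in 2, with a median of 0.65. This family was listed after values had been seen. WRKY53, an early regulator of leaf senescence, was at 0.857 and 6.21 FPKM, and WRKY46 at 0.931 and 5.20 FPKM. WRKY62 fell from 2.88 to 0.404 FPKM and MINI3, the WRKY factor of endosperm growth, from 6.43 to 1.74 FPKM. Of 7 genes compared from a list of salicylic acid genes 2 rose and 1 fell, with a median of 0.40. EDS1 and PBS3 rose, from 1.06 to 3.86 and from 1.83 to 7.70 FPKM, and the gene that fell was WRKY62. PR1, not among the genes compared, was listed at 0 in both genotypes.

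Clock genes of the morning and of the evening were displaced in opposite directions. Of 11 morning-phased genes 7 rose and none fell past 2-fold, with a median of 1.13, and of 8 evening-phased genes none rose and 4 fell, with a median of -0.72. LHY (AT1G01060, chromosome 1), a MYB-like repressor that peaks at dawn, was at 3.00 FPKM in pkr2-2 and 30.4 FPKM in the double mutant (interval of the ratio 8.95 to 11.5). Its partner CCA1 was at 4.16 and 11.1 FPKM. The related activators RVE8 and RVE1 were at 1.41 and 5.16 FPKM and at 1.99 and 7.43 FPKM. On the evening side PRR5 fell from 3.46 to 0.332 FPKM and FKF1, a blue light receptor, from 2.55 to 0.520 FPKM. ELF4, of the evening complex, fell from 8.57 to 2.21 FPKM, and LUX, of the same complex, fell by 1.29 on the log2 scale to 5.13 FPKM. TOC1 and GI, in contrast, were at 3.95 and 5.65 FPKM and at 8.50 and 8.85 FPKM. Against Col-0, in a table that shares the pkr2-2 libraries, the same lists had medians of 0.62 and -1.35 in pkr2-2. The time of day at harvest is not given in the sources used here, and its part in these values was not tested.

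GRP7 and GRP8, RNA-binding proteins whose transcripts cycle under the clock, were the largest falls among clock outputs. GRP7 (AT2G21660, chromosome 2) fell from 548 to 92.0 FPKM (interval of the ratio 0.163 to 0.174) and GRP8 from 823 to 300 FPKM. The upstream windows of LHY (minus strand, chr1:37872-38171) and GRP7 (minus strand, chr2:9266558-9266857) are shown because they hold the motifs of the morning and evening programmes. Capitals mark the G-box CACGTG in LHY and the evening element AAATATCT, on either strand, in GRP7.
LHY: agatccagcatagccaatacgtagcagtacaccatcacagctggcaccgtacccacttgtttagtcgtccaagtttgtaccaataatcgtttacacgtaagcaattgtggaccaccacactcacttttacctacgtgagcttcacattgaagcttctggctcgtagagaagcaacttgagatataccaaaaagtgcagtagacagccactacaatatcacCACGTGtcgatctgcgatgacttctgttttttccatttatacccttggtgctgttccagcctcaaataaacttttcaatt
GRP7: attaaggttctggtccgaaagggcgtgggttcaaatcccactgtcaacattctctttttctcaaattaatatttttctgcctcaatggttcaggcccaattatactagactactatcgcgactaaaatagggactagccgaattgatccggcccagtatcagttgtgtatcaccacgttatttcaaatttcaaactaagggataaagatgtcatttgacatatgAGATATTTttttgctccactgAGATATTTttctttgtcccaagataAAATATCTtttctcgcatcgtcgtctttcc
The LHY match begins 80 bases before the gene start, and those of GRP7 begin 76, 55 and 30 bases before it. The GRP7 window overlaps 1 other gene. The G-box was found before 6 of the 11 morning genes and 7.09% of all windows, and the evening element before 6 of the 8 evening genes and 5.64% of all windows. These matches describe the letters of the windows and not binding.

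Regulators of embryo identity and maturation were lower, with LEC1 first among them. Of 7 compared, 4 fell and none rose, all 7 lay below 0, and the median was -1.15. LEC1 (AT1G21970, chromosome 1), a histone-fold subunit that sets embryo identity, was at 79.8 FPKM in pkr2-2 and 5.54 FPKM in the double mutant, 12.5 to 16.7 times lower by its counting interval. Its relative L1L was at 1.94 and 0.237 FPKM. BBM, an AP2 factor able to induce embryos, fell from 4.13 to 0.989 FPKM and WRI1, which drives oil synthesis, from 17.0 to 7.11 FPKM. FUS3, a B3 factor of later maturation, was at 1.19 and 0.327 FPKM, and ABI3, of the same family, had 0.126 FPKM in the double mutant and a log2 difference of -0.90. AGL15 was at 8.93 and 8.39 FPKM. Of 12 storage protein and oleosin genes, 3 reached 1 FPKM, and SESA1, a 2S albumin, was at 2.66 FPKM in pkr2-2 and listed at 0 in the double mutant.

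On the FPKM + 1 scale, most genes whose products repress the maturation programme stayed within 2-fold. VAL1, a B3 repressor of LEC1 and its relatives, rose from 1.67 to 4.85 FPKM, and VAL2 was at 2.57 and 5.51 FPKM. Among Polycomb genes, 1 of 8 of repressive complex 2 and 1 of 6 of complex 1 rose, and none fell past 2-fold. These were SWN, a histone methyltransferase, at 6.85 and 14.9 FPKM, and RING1B, a histone H2A ubiquitin ligase, at 3.58 and 9.30 FPKM. All 6 genes of complex 1 lay above 0, with a median of 0.57. RING1A, of that complex, was at 1.96 and 4.89 FPKM (interval of the ratio 2.02 to 3.06), just under 2-fold on the FPKM + 1 scale. The methyltransferase gene CLF was at 2.12 and 4.00 FPKM, whereas the endosperm subunit FIS2 was at 3.46 and 1.75 FPKM and FIE at 26.2 and 17.3 FPKM. MAF4 and MAF5, floral repressors related to FLC, rose from 1.08 to 8.02 and from 3.72 to 28.4 FPKM, while FLC was at 0.781 and 0.0734 FPKM.

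Markers of all 3 seed compartments were present in both genotypes, and their levels moved in different ways. The 13 endosperm markers summed to 205 FPKM in pkr2-2 and 105 in the double mutant, the 13 seed coat markers to 1249 and 1471 FPKM, and the 10 embryo markers to 261 and 378 FPKM. The embryo sum was carried by the epidermal gene PDF1, at 199 and 314 FPKM, while of the 9 embryo markers compared 1 rose, 2 fell and 5 lay below 0, with a median of -0.68. The 5 markers of green leaf or silique wall summed to 3921 and 3059 FPKM, but 2 of them rose, none fell past 2-fold and their median was 0.25. The 4 pollen markers summed to 41.2 and 40.7 FPKM, and no marker of any list was at 0 in both genotypes. In the endosperm, 4 of the 12 genes compared fell and 1 rose, with a median of -0.61. AGL40, a MADS-box gene, fell from 56.0 to 17.3 FPKM, and ZOU, which drives endosperm breakdown, fell by 1.61 on the log2 scale to 2.63 FPKM. The imprinted genes PHE1 and PHE2 were at 55.2 and 28.7 FPKM and at 31.0 and 14.1 FPKM. AGL62, which delays endosperm cellularisation, was the gene that rose, from 0.427 to 2.05 FPKM, and it was compared only through the double mutant. Of the 12 genes, 4 lay above 0. The part of these compartment shifts in the other lists was not tested.

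In the embryo list, STM, the homeobox gene that maintains the shoot meristem, rose from 1.25 to 10.6 FPKM (interval of the ratio 6.49 to 11.2). CUC1 and CUC2, which bound the cotyledons and act upstream of STM in embryos, fell from 4.45 to 1.29 and from 4.64 to 0.586 FPKM. The epidermal gene ATML1 was at 42.7 and 44.0 FPKM. Seed coat transcription factors showed no member past 2-fold among 8, with a median of 0.01. TT8 and TT16 were at 21.1 and 41.6 FPKM and at 19.8 and 35.3 FPKM, and MYB5 at 48.2 and 23.7 FPKM. Of 12 flavonoid genes only TT10, a laccase that browns the seed coat, was past 2-fold, at 5.93 and 17.7 FPKM. CHS, the first enzyme of the pathway, was at 3591 and 3453 FPKM. Among 10 mucilage genes SBT1.7, a subtilase of the mucilage-secreting cells, fell from 2501 to 698 FPKM and no other member was past 2-fold.

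Of 19 cell division genes 6 fell and none rose, with a median of -0.77. The 6 were KNOLLE, CYCB1;3, CYCA1;1, CDKB1;1, CDKB1;2 and CDKB2;2. KNOLLE, the syntaxin of the dividing cell plate, fell from 28.4 to 7.83 FPKM and the mitotic cyclin gene CYCB1;3 from 11.6 to 2.78 FPKM. The mitotic kinase gene CDKB1;1 fell by 1.32 on the log2 scale from 26.8 FPKM, and CDKB1;2 fell from 14.8 to 5.66 FPKM. The replication genes MCM2 and MCM5 were at 10.4 and 11.3 FPKM and at 11.6 and 13.4 FPKM, and PCNA1 at 114 and 61.7 FPKM. CDKA;1, the kinase used throughout the cycle, was at 26.3 and 28.5 FPKM. Genes annotated as histones, most of which are transcribed in S phase, fell in 15 of 59 cases and rose in 1, with a median of -0.39. That list was matched by annotation name after values had been seen and holds LEC1 as well as HIS1-3. The H2A gene HTA6 fell from 745 to 267 FPKM and the H3 gene AT1G09200 from 1202 to 452 FPKM.

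Genes for cytosolic ribosomal proteins moved together by a small amount. Of 275 compared, 260 lay below 0 and 20 fell past 2-fold, none rose, and the median was -0.61. Their summed level was 75825 FPKM in pkr2-2 and 46221 FPKM in the double mutant. RPL27AB fell from 866 to 379 FPKM and SAC52, a protein of the large subunit, from 1387 to 688 FPKM. The site II motif TGGGCC, which TCP factors bind, was found in the windows of 124 of these 275 genes (45.1%) and in 14.6% of all windows. Nuclear genes of the photosystems and RuBisCO lay closer to 0, with a median of -0.34. Of these, 24 of 28 lay below 0 and 1 was past 2-fold. Genes of the chloroplast genome were lower still, with 51 of 57 falling, 2 rising and a median of -1.93, and 8 of 13 mitochondrial genes fell. Such transcripts carry few poly(A) tails, and their share of the summed FPKM was 0.120% in pkr2-2 and 0.0313% in the double mutant for the chloroplast.

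Sugar and nitrate transporters that feed the seed separated by gene. Of 9 sugar genes 5 fell and 1 rose, with a median of -1.01. SWEET10, a sucrose efflux carrier, fell from 298 to 56.2 FPKM (interval of the ratio 0.181 to 0.196). SWEET12 and SWEET11, which export sucrose from the seed coat, fell from 51.0 to 13.4 and from 8.84 to 3.72 FPKM. The phloem loader SUC2 and the cell wall invertase gene CWINV4 fell from 68.6 to 33.6 and from 65.3 to 30.7 FPKM. SWEET15, a carrier also known from senescing leaves, rose from 4.74 to 14.4 FPKM. In the nitrate list 3 of 9 genes rose and 2 fell, with a median of 0.36. NRT1.5, a long-distance transporter of nitrate and potassium, fell from 162 to 22.7 FPKM, and NRT1.6, which delivers nitrate to the embryo, from 69.1 to 26.5 FPKM. NRT1.7, which moves nitrate out of old leaves, rose from 13.0 to 44.7 FPKM, NRT1.8 from 1.33 to 3.84 and the nitrate reductase gene NIA2 from 1.09 to 3.77. NRT1.5 overlaps PKp3 on the opposite strand, at 7.94 and 5.18 FPKM, and NRT1.6 overlaps AT1G27090 there, at 128 and 96.9 FPKM.

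Genes of sugar starvation and amino acid breakdown rose in 5 of 19 cases and fell in 1, with a median of 0.58. In pkr2-2 against Col-0, 6 of these 19 had been at least 2-fold lower and 0 higher, with a median of -0.60. In pkl-1 against Col-0 the median of the list was -0.14. ASN1 (DIN6), an asparagine synthetase induced in darkness, was at 1.06 and 23.2 FPKM. LKR, which starts lysine breakdown, was at 7.39 and 38.3 FPKM. The F-box genes KMD2 and KMD4, whose products remove a phenylpropanoid enzyme and type-B response regulators, both rose, KMD2 from 1.49 to 11.4 FPKM and KMD4 by 1.69 on the log2 scale from 4.93 FPKM. Of 6 genes of gibberellin synthesis and breakdown 1 rose and 1 fell, as did 1 each of 8 auxin genes. GA2OX2, which inactivates gibberellin, rose from 8.15 to 31.1 FPKM, and GA20OX3, which makes it, fell from 3.17 to 0.316 FPKM. The auxin transporter gene PIN3 rose from 13.5 to 31.4 FPKM and the auxin synthesis gene TAR2 fell from 38.6 to 18.7 FPKM.

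**Figure D3:**
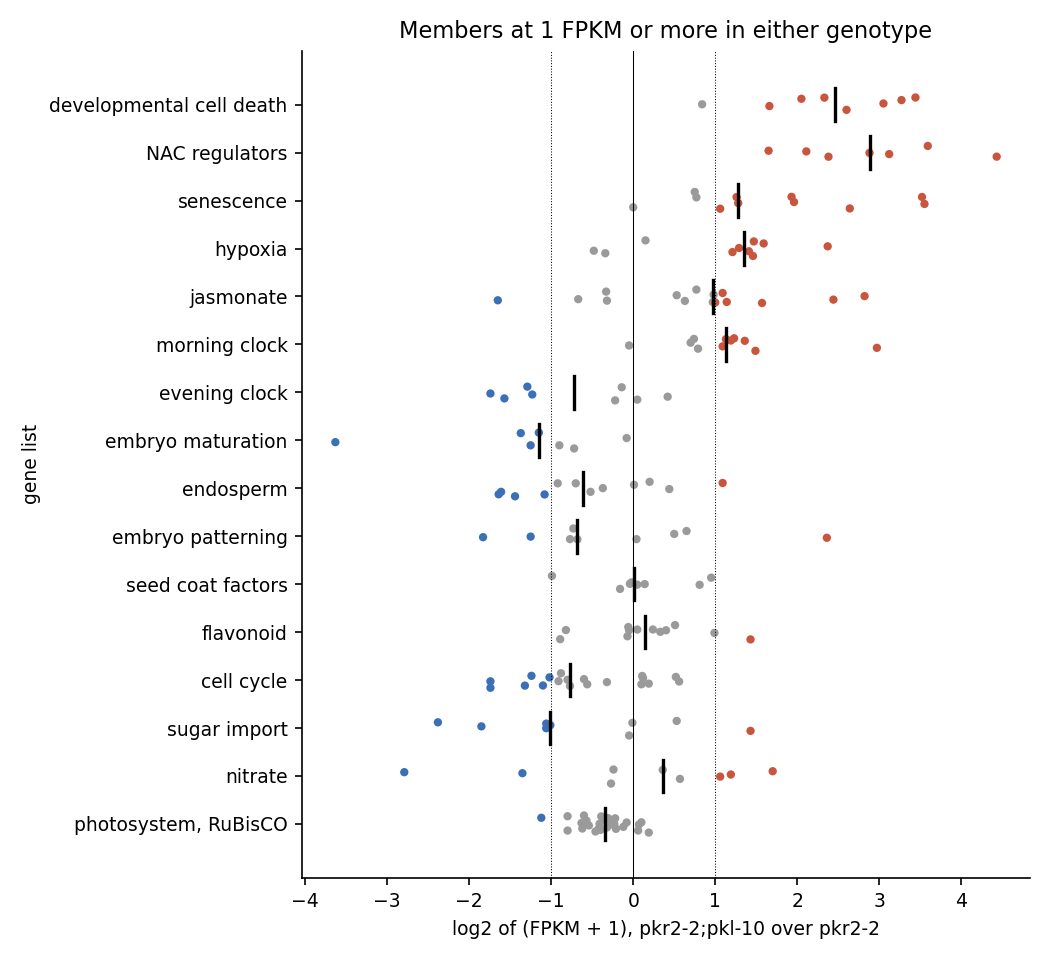
Log2 difference of FPKM + 1, double mutant over pkr2-2, for each member of 16 gene lists that reached 1 FPKM in either genotype. Each point is a gene, vertical bars are list medians, dotted lines mark 2-fold, red genes rose and blue genes fell. The medians run from 2.88 for the NAC regulators and 2.47 for developmental cell death down to -1.15 for the embryo maturation genes. The cell death, NAC and senescence lists were drawn up after values had been seen.

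Several other single genes had large falls. GGT2, a gamma-glutamyl transpeptidase gene expressed in young siliques, fell from 700 to 54.8 FPKM (12.4 to 13.2 times lower by its counting interval). Of 56 GDSL-type esterase and lipase genes 17 fell and 4 rose, with a median of -0.62. AT1G71250 fell from 23.3 to 0.104 FPKM, and AT5G22810 fell by 4.27 on the log2 scale from 41.3 FPKM. AT1G14580, a C2H2 zinc finger gene, fell from 104 to 5.24 FPKM and AT1G67820, a gene for a type 2C phosphatase, from 189 to 12.4 FPKM. DRNL, an AP2 factor of cotyledon formation, was at 8.34 and 0.176 FPKM, and ROXY1, a glutaredoxin of floral organ formation, at 18.3 and 1.25 FPKM. Large rises were seen for FTM1, an acyl carrier protein desaturase gene, at 0.777 and 21.4 FPKM. DOT1, a glycine-rich protein gene, rose by 4.02 on the log2 scale from 0.145 FPKM, and AGP2, an arabinogalactan protein, was at 14.2 and 110 FPKM. TCH3, a calmodulin-like gene induced by touch, was at 3.37 and 36.6 FPKM. FAR1, a fatty acyl reductase of suberin and wax, was at 0.558 and 13.4 FPKM.

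The 300-base windows before each gene start were searched for motifs on both strands and compared by share only. The ACGTG core was in 25.5% of the 18343 windows of genes compared, 30.2% of 1213 windows of genes that rose and 42.9% of 184 windows of genes that rose at least 4-fold. In genes that fell it was in 24.9% of 1254 windows, and in 24.7% of 243 at 4-fold. The G-box CACGTG, which contains that core, was in 7.93% of the windows of genes compared, 9.78% at 4-fold higher and 2.88% at 4-fold lower. Site II (TGGGCC) was less frequent in both directions, at 7.07% and 5.35% of the 4-fold sets against 17.9% of genes compared. The evening element AAATATCT stood in 8.53% of genes that fell and 5.52% of those that rose. TATAAA was in 66.3% of windows of genes that fell at least 4-fold, 54.9% of those that rose at least 4-fold and 52.4% of genes compared, and in all 8 of the cell death genes. Genes of the 4-fold sets differ from the rest in length and level, and the part of these in the shares was not tested.

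**Figure D4:**
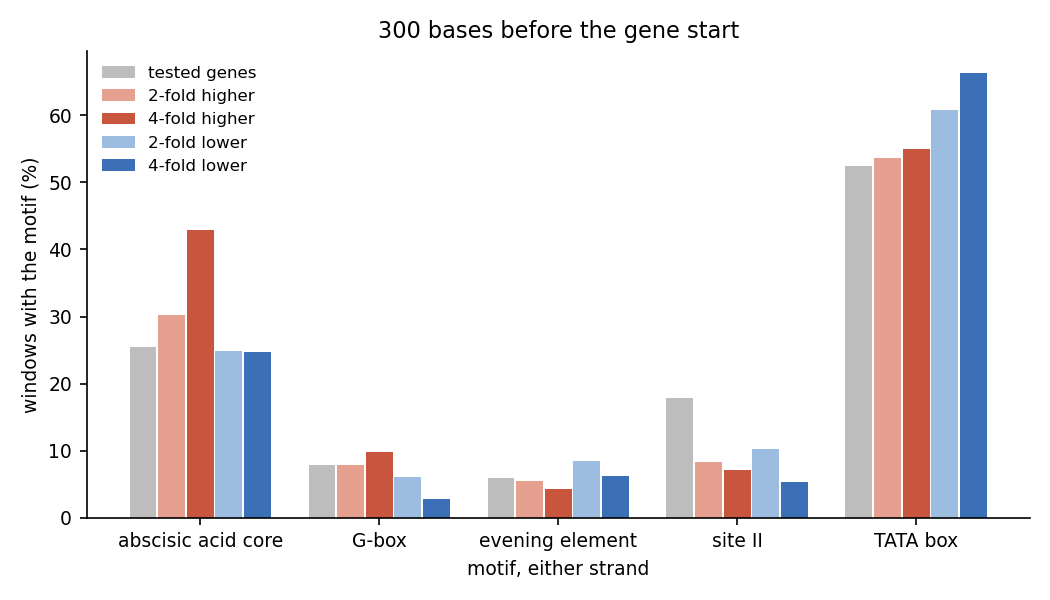
Share of 300-base windows before gene starts that hold each motif on either strand, in percent, for genes compared (grey) and for genes past 2-fold and 4-fold upwards (reds) and downwards (blues). The ACGTG core, labelled abscisic acid core, is in 42.9% of windows at 4-fold higher against 25.5% of genes compared. The G-box also contains this core, and a link of its share to abscisic acid was not tested. Site II is lower in all 4 sets than its 17.9% in genes compared. Bars carry no error because each is a full count of windows.

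To ask how far the change depended on the absence of PKR2, the same genes were set beside pkl-1 against Col-0, where PKR2 was intact and no library is shared. The alleles differ, pkl-10 being an insertion with less transcript and pkl-1 leaving PKL at 15.2 FPKM against 12.8 in Col-0, and the tables were normalized separately. In pkl-1, 6.51% of 18645 genes were at least 2-fold higher and 6.11% lower. Of 18187 genes compared in both, 1157 rose in the pkr2-2 background and 1127 with PKR2 intact, and 639 rose in both, which is 55.2% of the first list and 56.7% of the second. Of 1324 genes that fell in the pkr2-2 background and 1030 with PKR2 intact, 753 fell in both, or 56.9% and 73.1% of the lists. Genes past 2-fold in opposite directions numbered 18 and 24. Genes that rose in the pkr2-2 background had a median of 1.38 there and 1.08 in pkl-1, and those that fell -1.43 and -1.10. Since those genes were picked by their value in one of the comparisons, the larger median there is partly a result of the choice. The difference between the backgrounds could not be tested on pooled values.

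The cell death and maturation lists had like values in both backgrounds. All list medians, also those of pkl-1 against Col-0, cover the genes that reached 1 FPKM in pkr2-2 or the double mutant. They were not chosen by their level in the pkl-1 comparison. The cell death genes had medians of 2.47 without PKR2 and 3.00 with it, and all 8 lay above 0 in both. For the NAC regulators the medians were 2.88 and 2.31, for senescence genes 1.28 and 1.36, for hypoxia 1.35 and 1.15, for maturation -1.15 and -1.03 and for cell division -0.77 and -0.70. BFN1 had log2 differences of 3.44 and 3.45, ORE1 4.43 and 4.06, HB40 4.01 and 4.32, and LEC1 -3.63 and -2.72. In the pkl-1 table Col-0 had 93.9 FPKM of LEC1 and pkl-1 13.4 FPKM.

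Other genes differed between the backgrounds in size or direction. LHY had log2 differences of 2.97 in the pkr2-2 background and 0.47 with PKR2 intact, where Col-0 had 1.43 FPKM and pkl-1 2.36 FPKM. TCH3 had 3.11 and 0.55, and PRR5 -1.74 and -0.19. The morning clock medians were 1.13 and 0.32 and those of the evening -0.72 and -0.20. Of 7 heat shock genes 4 rose, and the medians of the list were 1.29 and -0.16. Members that entered only through their level in the double mutant can widen this gap. At a pseudocount of 0.1 FPKM the first median was 2.77. HSP17.4 was listed at 0 in pkr2-2 and 4.41 FPKM in the double mutant, but it overlaps AT3G46220 (10.8 and 13.9 FPKM) and AT3G07365 (0.954 and 9.10 FPKM) on the opposite strand. HSP17.6A was at 0.153 and 4.35 FPKM. STP1, a hexose transporter gene, rose from 8.85 to 30.1 FPKM without PKR2 and had a log2 difference of -0.62 with it. The stress gene AT3G15450 had 1.22 and -1.53, with 686 FPKM in Col-0 against 237 FPKM in pkl-1. Both genes were already lower in pkr2-2 than in Col-0, with log2 differences of -2.57 for STP1 and -3.66 for AT3G15450. In the double mutant they remained below Col-0, at -0.94 and -2.45. STM had 2.36 and 0.81.

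For some genes the difference was larger where PKR2 was intact. SAG12 had 2.64 in the pkr2-2 background and 4.59 with PKR2 intact, where Col-0 had 0.298 FPKM and pkl-1 30.3 FPKM. The GDSL-type gene AT5G33370 had 2.08 and 4.84. COR15A, a chloroplast protein induced by cold, was at 14.9 and 15.1 FPKM without PKR2, whereas Col-0 had 17.9 FPKM and pkl-1 2.13 FPKM. Among genes with at least 1 FPKM in both tables, the 5 in each direction with the widest gap were all short, non-coding or of the chloroplast, among them the thionin gene AT2G20619, psbH, psbK and rpl32, and their values are not described.

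**Figure D5:**
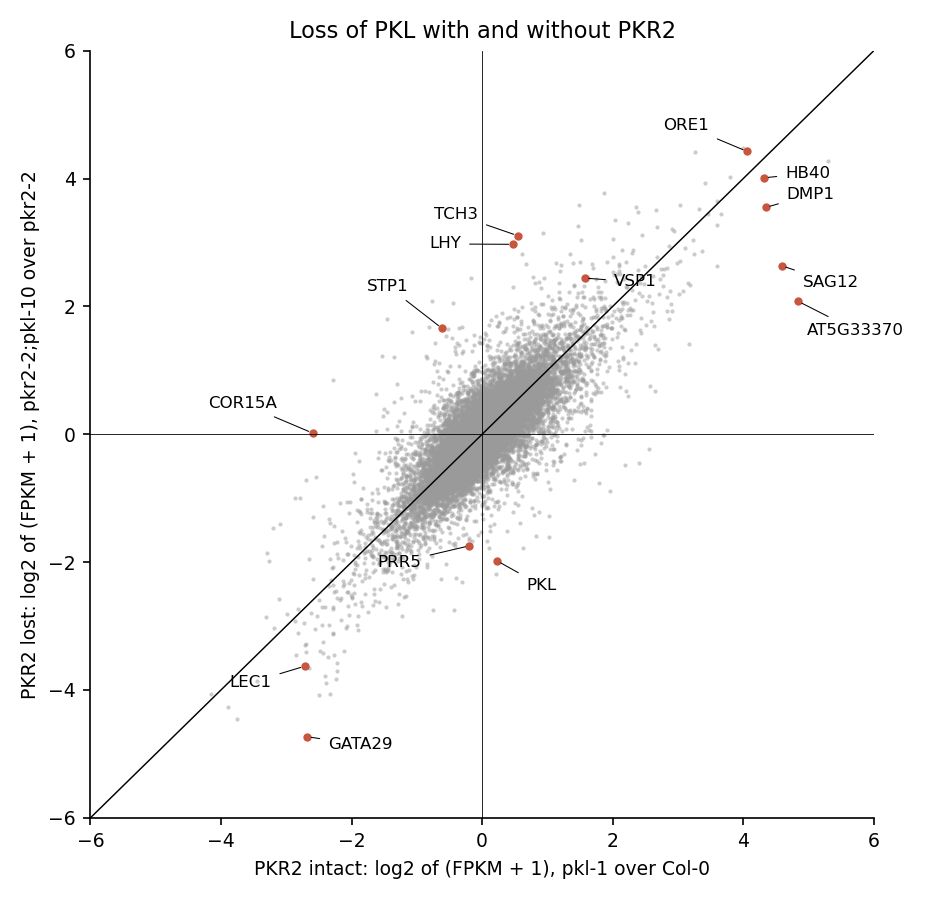
Log2 difference of FPKM + 1 on loss of PKL with PKR2 intact (pkl-1 over Col-0, x axis) and with PKR2 lost (double mutant over pkr2-2, y axis), for nuclear protein-coding genes of at least 600 nt that reached 1 FPKM in both tables. Each point is a gene and the line marks equal differences. ORE1 and HB40 lie near the line, LHY at 0.47 and 2.97 and TCH3 at 0.55 and 3.11 lie above it, and SAG12 at 4.59 and 2.64 lies below it.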

How the data were processed

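Seed RNA of 4 genotypes was sequenced as oligo(dT)-selected, ribosomal RNA-depleted, unstranded libraries. The submitters' notes name TopHat2 2.1.1, Cufflinks 2.2.1.3 and the build TAIR10. The authors ran each comparison separately and deposited 5 tables of FPKM, pooled over 2 replicates per genotype, of which 4 were read here. Their columns of fold change, test statistic, p-value, q-value and significance were not used. The number of per-sample columns left unused was 0.

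Log2 differences of FPKM + 1 were taken over genes with at least 1 FPKM in either genotype. Fragment numbers assumed a fragment length of 300, for transcripts of at least 600 nt. By them the double mutant was 1.69 times deeper than pkr2-2. Intervals are exact (Clopper-Pearson). Names and positions came from RefSeq annotation of TAIR10.1 for 38158 of 38209 genes. Tables were handled with pandas 2.3.3 and numpy 2.4.6 under Python 3.11.15, intervals came from scipy 1.17.1, and matplotlib 3.10.9 drew the figures. The calculations were tested on simulated data.

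Members and lists were chosen with earlier results of these data known, and the cell death, NAC, senescence, vacuolar protease, histone, bHLH, WRKY, SCR-like, ECA1, X8, early nodulin-like, thionin and DUF239 lists after the values were seen. Named genes were PKL, PKR2, the 12 largest rises and falls, up to 4 members of each list with those that define it, and the 5 widest gaps between backgrounds. Other names were chosen after their values were seen.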

Additional observations from a re-analysis of the deposited data

How the results depend on the processing

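Because the tables hold 1 pooled value per genotype, leaving out a replicate was not possible. No paired analysis was possible because the columns carry no replicate. The pseudocount moved the counts most. With 0.1 FPKM in place of 1, the genes at least 2-fold higher went from 1350 to 2102, the 4-fold counts from 234 to 685 higher, 318 to 673 lower and 552 to 1358 in all, and the genes 2-fold higher in both backgrounds from 639 to 1035. With 5 FPKM, 429 were 2-fold higher, 761 2-fold lower and 1190 in all, and 60 were 4-fold higher, 136 lower and 196 in all. A minimum of 5 FPKM left 871 genes 2-fold higher and 412 higher in both backgrounds. Protein-coding genes of at least 600 nt, an alternative added after seeing the data, gave 159 genes 4-fold lower and 315 in all. Centring on nuclear genes, a shift of 0.02, gave 1303 and 1475 genes past 2-fold, and no minimum, nuclear genes only and a minimum of 300 nt kept each count within 1.5 times. At 0.1 FPKM 1853 genes were 2-fold lower, so that more genes were higher than lower, as also among the coding genes of at least 600 nt (1118 and 1027). The medians of the mucilage and seed coat factor lists, both 0.01, turned to -0.01 and to just below 0 after centring. All 36 lists with a median of at least 0.5 in size kept its sign at a pseudocount of 0.1 FPKM and after centring. Pooling limits every statement here to the libraries compared, and genes near 1 FPKM are the least certain.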

Other observations

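Families of small secreted, cysteine-rich peptides and of cell wall proteins held many of the transcripts that were lower in the double mutant. Their members were matched by annotation name, for all but the defensin-like list after values had been seen, and most of the peptide genes have transcripts under 600 nt, of which 54.7% were past 2-fold in either direction, so these counts are values only. Of 137 defensin-like genes 66 fell and 18 rose, with a median of -0.81, and their summed level was 21385 FPKM in pkr2-2 and 7626 FPKM in the double mutant. LCR35 fell from 2130 to 409 FPKM. SCR-like and S1 homologues, relatives of self-incompatibility proteins, fell in 24 of 47 cases and rose in none, and AT3G24068 was at 523 and 29.3 FPKM. ECA1-related genes fell in 17 of 35 cases and X8-domain genes, which bind callose in related proteins, in 13 of 26. Plant thionin genes went the other way, with 11 of 22 rising and 5 falling. Their median was 1.05, and 0.03 in pkl-1 against Col-0.

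Among longer secreted and wall genes the direction differed by family. The early nodulin-like genes fell in 9 of 18 cases, ENODL11 from 133 to 37.0 FPKM and ENODL10 from 21.5 to 0.343 FPKM. Genes with the DUF239 domain fell in 12 of 30 cases, 9 of them at least 4-fold, and AT4G15050 was at 512 and 76.1 FPKM. Pectin methylesterases and their inhibitors fell in 27 of 79 cases and rose in 9. The inhibitor genes AT5G46960 and AT5G46950 fell from 2933 to 530 and from 2023 to 368 FPKM. The expansin gene EXPA21 fell from 1326 to 198 FPKM, while EXPA6 rose from 39.9 to 95.9 FPKM, in a list of 42 xyloglucan and expansin genes of which 6 rose and 8 fell. Class III peroxidases rose in 11 of 41 cases and fell in 4, with a median of -0.13. Pectate lyase and polygalacturonase genes had a median of 0.17, with 10 of 63 rising and 5 falling, and PGIP2, an inhibitor of polygalacturonases matched by that name, rose from 11.5 to 61.6 FPKM.

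An 18S ribosomal RNA gene and its neighbour were listed above 0 in the double mutant only. The 18S gene AT3G41768 was listed at 0 FPKM in pkr2-2, Col-0 and pkl-1 and at 3423 FPKM in the double mutant, and AT3G06365, next to it, at 0 and 2006 FPKM. Whether a listed 0 means that no ribosomal RNA was sequenced cannot be told from pooled FPKM. How far ribosomal RNA was removed from each library was not tested.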
